A study of Mus musculus with 30 samples.

Results

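The insulin-like growth factor (IGF) genes of the postnatal mouse sclera, the collagen-rich outer coat of the eye, were followed over 5 ages. The 10 genes are the ligands Igf1 and Igf2, the receptors Igf1r and Igf2r, and the binding proteins Igfbp2, Igfbp3, Igfbp4, Igfbp5, Igfbp6 and Igfbp7. Each was represented by the transcript cluster, the array's unit for a gene, that carried its symbol alone. All 10 had exactly 1 such cluster, and they stand among 19938 genes represented in the same way and 35556 transcript clusters in all. In percentile of mean signal among the 19938 genes, Igf1 stood at 73.3 and the other members between 90.3 and 99.7. Shares and medians over all genes are therefore not matched to the members for brightness. RNA came from the single sclerae of Balb/cJ mice, which are inbred and albino, aged 1, 2, 3, 6 and 8 weeks, with 6 mice and 6 arrays at each age. No treatment, transgene or other genotype was involved, the mice were taken from the same family according to the methods, and their sex was not stated there or in the labels. Values are the deposited log2 signals, on which a difference of 1 is a doubling of signal. Beyond these percentiles, levels of different genes are not compared because probes differ in how brightly they bind.

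IGF1 and IGF2 are secreted growth factors. Both act through IGF1R, a receptor tyrosine kinase related to the insulin receptor, which signals through insulin receptor substrates to the PI3K, AKT and mTOR kinases and through the MAP kinase pathway. IGF2R, the cation-independent mannose 6-phosphate receptor, takes IGF2 into the cell for breakdown in lysosomes. IGF-binding proteins carry the ligands, limit or prolong their access to the receptor and are cut by dedicated proteases, while IGFBP7 binds IGFs only weakly. Igf2 is expressed from the paternal copy and is known as a growth factor of the fetus and the newborn, and Igf1 carries growth hormone action after birth. In the eye, the IGF system is studied in relation to the growth of the globe.

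Both ligands were brightest at week 1 and fell by week 2, and Igf2 fell again between week 3 and week 6. All 6 binding proteins rose between week 2 and week 3. Igfbp3 rose 1.94-fold (limma adjusted p = 0.00327), under the 2-fold threshold, and the others rose 2.37-fold to 3.09-fold. In this step 2.89% of all genes were called higher. Between week 3 and week 6, where 3.03% of all genes were called lower, 4 of the 6 were called lower. None of these 5 rises was called when the spread of each array entered the fit as a covariate (log2 0.66 to 1.07, limma adjusted p = 0.152 to 0.356). The receptors moved by less than 2-fold in every comparison of successive weeks. Neither ligand had returned to its week 1 level by week 8, whereas the week 8 difference from week 1 was -0.01 on the log2 scale for Igfbp2 and -0.08 for Igfbp5.

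The stretches before the transcription starts of 5 of these genes are shown as examples. The genes are both ligands, the receptor Igf1r, and Igfbp4 and Igfbp5 among the binding proteins that rose by week 3. Whether Igf1r moved unlike the binding proteins was not tested. Each stretch is the 100 bases before a RefSeq start, 5′ to 3′ on the gene's own strand in the GRCm38.p6 build. A TATA box (TATAAA) or a GC box (GGGCGG) found on either strand is in capitals. Igf2 has 4 listed starts, of which the most downstream is shown. The starts shown for Igf1 and Igfbp4 also lie inside the listed spans of these genes (chr10:87858265-87937047 and chr11:99040005-99052655). Which starts are used in the sclera was not tested.
Igf1 (chr10:87861011-87861110, plus strand): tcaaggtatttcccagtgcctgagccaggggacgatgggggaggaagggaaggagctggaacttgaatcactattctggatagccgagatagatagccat
Igf2 (chr7:142657497-142657596, minus strand): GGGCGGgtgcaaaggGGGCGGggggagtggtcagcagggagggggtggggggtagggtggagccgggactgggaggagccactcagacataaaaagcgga
Igf1r (chr7:67952157-67952256, plus strand): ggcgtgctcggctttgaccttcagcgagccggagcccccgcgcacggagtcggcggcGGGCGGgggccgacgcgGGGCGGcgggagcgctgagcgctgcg
Igfbp4 (chr11:99041144-99041243, plus strand): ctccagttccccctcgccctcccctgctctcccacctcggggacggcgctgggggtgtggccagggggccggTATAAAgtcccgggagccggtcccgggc
Igfbp5 (chr1:72874866-72874965, minus strand): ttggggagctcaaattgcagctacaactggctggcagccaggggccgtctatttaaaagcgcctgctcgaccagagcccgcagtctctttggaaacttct

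RefSeq listed 14 start windows for the 10 genes, each holding 250 bases before the start and 50 after it. A GC box lay in 6 of the 14 windows and in 35.7% of the 32851 windows of all genes, and a TATA box lay in 2 of the 14 and in 13.6% of all. The TATA box of Igfbp4 lies 28 bases before the start, the usual place of this element. The Igf1 and Igfbp5 stretches hold neither motif, the Igf2 stretch holds 2 GC boxes and the Igf1r stretch holds 2. Igf2 windows 1 and 2, of the starts further upstream, hold no GC box. The GC content of the windows ran from 49.7% in Igfbp6 and in the second Igf2 window to 76.0% in Igf1r, against a median of 52.7% over all windows. These matches describe the sequence only. Igfbp2 (chr1:72824480-72852474) and Igfbp5 (chr1:72858065-72874865) are neighbours, 5590 bases apart, and they are transcribed towards each other from opposite strands.

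The deposited arrays were not all independent. The values of week 2 replicate 4 equalled the mean of the other 5 week 2 arrays for every transcript cluster, to within 8e-05 on the log2 scale. In week 6 the mean of replicates 4 and 6 equalled the mean of the other 4 arrays to within 8e-05. The deviations of the 30 arrays from their week means accordingly spanned 23 dimensions, where 25 would be open to 30 arrays in 5 weeks. Whether this came from the removal of scan-date effects that the methods name was not tested. Week 2 is given here over 5 arrays (n = 5), which leaves its means as they were, and n = 6 elsewhere. Adding terms for the dependent arrays to the fit, an alternative chosen after seeing the data, kept all 50 calls and non-calls of the 10 genes in the 5 comparisons described.

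Array medians lay between 6.15 and 6.37 and each array's mean correlation with its own week between 0.964 and 0.988. The spread of the arrays differed between ages, with interquartile ranges from 2.60 to 2.79 in week 1, from 2.22 to 2.56 in week 2, from 2.71 to 2.80 in week 3 and from 2.26 to 2.64 in week 6. These ranges did not overlap between weeks 1 and 2, weeks 2 and 3 or weeks 3 and 6. In these comparisons a fit with spread as a covariate cannot tell spread from age. The tissue held RNA of several cell types. All 11 markers of scleral fibroblasts and matrix, such as Col1a1, Dcn and Lum, were measured. Their mean log2 signal was 10.54 ± 0.32 at week 1 and 9.33 ± 0.66 at week 2 (SD, n = 6 and 5). In weeks 3, 6 and 8 it was 10.19 ± 0.36, 9.91 ± 0.44 and 9.72 ± 0.34 (n = 6). The 12 striated muscle markers went from 11.08 ± 0.81 in week 1 to 7.05 ± 0.70 and 6.75 ± 0.66 in weeks 2 and 3 and to 9.87 ± 0.71 and 10.41 ± 0.59 in weeks 6 and 8. The 10 measured photoreceptor markers stood at 9.14 ± 1.24 in week 1 and between 5.76 and 6.99 afterwards, and the 10 surface epithelium markers at 8.33 ± 0.78 in week 1 and between 10.72 and 11.17 afterwards. In whole sclera, fewer cells of a type and less RNA per cell cannot be told apart.

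**Figure D1:**
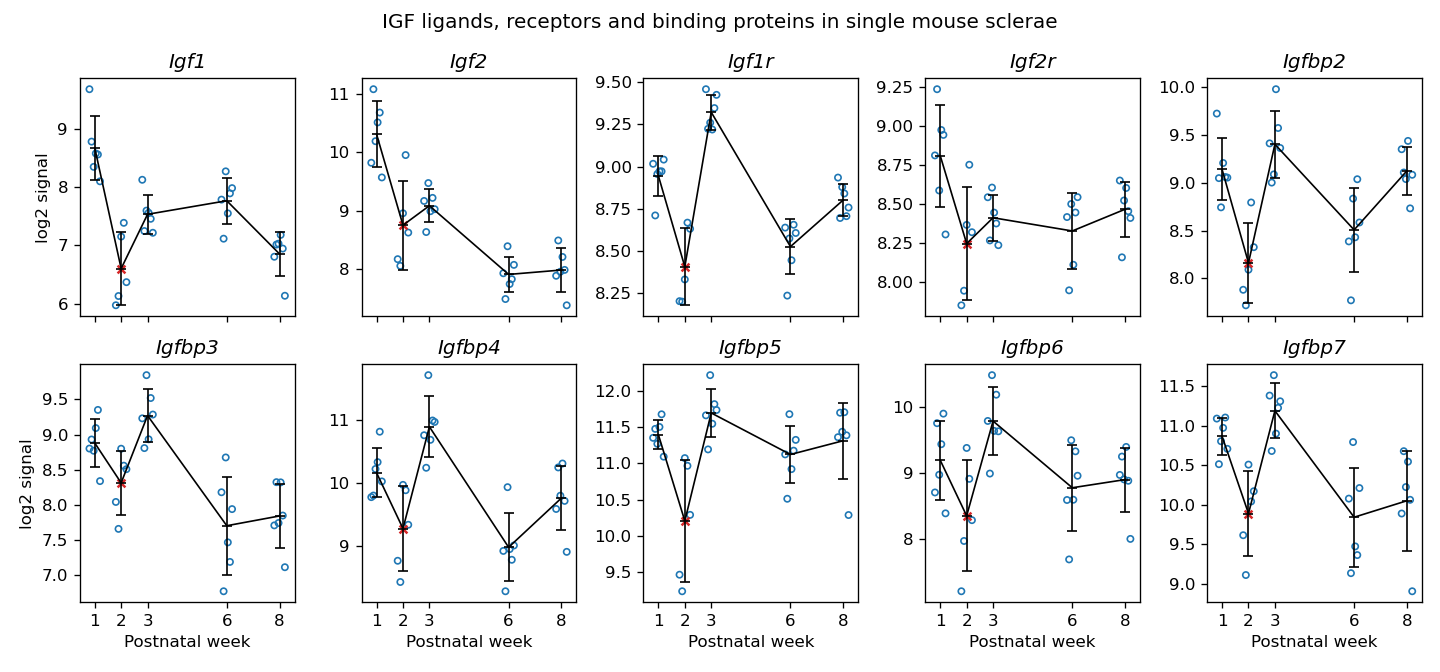
Log2 signal of each gene (vertical axis, own scale per panel) plotted by age in postnatal weeks (horizontal axis). Each open circle is 1 array from 1 mouse, the red cross in week 2 is the array that equals the mean of the other 5, and black lines join the means with SD bars. Igf1 and Igf2 are highest in week 1. The means of the binding proteins are highest in week 3, a difference from week 1 that passed the adjusted p for Igfbp4 alone.

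The ligand Igf2 had the widest range of week means of the 10 genes, 2.41 on the log2 scale, wider than or equal to that of 98.4% of the 19938 genes. In week 1 the 6 arrays ran from 9.57 to 11.09 with a median of 10.36. In week 2 they ran from 8.05 to 9.96 with a median of 8.62, and in week 3 from 8.63 to 9.47 with a median of 9.10. The highest week 2 array thus lay above the 2 lowest of week 1, and weeks 1 and 3 did not overlap. In week 6 the signal ran from 7.48 to 8.39 with a median of 7.87, and in week 8 from 7.37 to 8.49 with a median of 7.97, so that every array of these weeks lay below every array of week 3. Igf2 fell 2.95-fold from week 1 to week 2 (log2 -1.56 ± 0.26 SE, limma adjusted p = 6.32e-06) and 2.27-fold from week 3 to week 6 (log2 -1.18 ± 0.26, adjusted p = 0.000302). With the array spread as a covariate the second fall was -0.81 and no longer called (adjusted p = 0.0688), while the first was -1.16 (adjusted p = 0.0204). Between weeks 2 and 3 the difference was 0.33 ± 0.26 (adjusted p = 0.276) and between weeks 6 and 8 it was 0.08 ± 0.26 (adjusted p = 0.849). The order of the means was therefore week 1, then weeks 3 and 2, then weeks 8 and 6, with neighbours inside each of the last groups not separated. From week 1 to week 8 Igf2 fell 5.04-fold (adjusted p = 5.21e-08).

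Igf1, the ligand tied to growth hormone, had its lowest mean in week 2. Week 8 was not separated from week 2, with a log2 difference of 0.25 ± 0.25 SE (limma adjusted p = 0.475). The week 1 arrays of Igf1 ran from 8.10 to 9.69 with a median of 8.57. Those of week 2 ran from 5.97 to 7.39 with a median of 6.37, all below every week 1 array. The drop was 4.22-fold (log2 -2.08 ± 0.25, limma adjusted p = 5.91e-08), the largest of the 10 genes in this comparison. In week 3 the arrays ran from 7.22 to 8.13 with a median of 7.51, in week 6 from 7.12 to 8.28 with a median of 7.84 and in week 8 from 6.13 to 7.18 with a median of 6.98. Weeks 3 and 6 overlapped and differed by 0.23 ± 0.25 (adjusted p = 0.437). The difference of 0.93 ± 0.25 from week 2 to week 3 and of -0.92 ± 0.25 from week 6 to week 8 passed the adjusted p (0.00287 and 0.00435) but stayed under 2-fold. Over the whole span from week 1 to week 8 Igf1 fell 3.55-fold (adjusted p = 1.09e-06), with no overlap between the arrays of the 2 ages.

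The ligands did not run in parallel. The per-array difference of log2 signals, Igf2 minus Igf1, was 1.55 ± 0.32 at week 3, 0.13 ± 0.14 at week 6 and 1.13 ± 0.20 at week 8 (SD over 6 arrays). It ran from -0.07 to 0.36 in week 6, below every array of weeks 3 and 8. From week 3 to week 6 Igf2 changed by 1.41 less than Igf1 on the log2 scale (-1.41 ± 0.14 SE, exact two-sided permutation p = 0.00216, adjusted over 15 tests 0.00812), and from week 6 to week 8 by 0.99 ± 0.10 more (exact permutation p = 0.00216, adjusted 0.00812). A p of 0.00216 is the smallest that 6 arrays against 6 can give. Without week 6 replicates 4 and 6, which depend on the other 4 and whose removal leaves the mean as it was, both differences had an exact permutation p of 0.00952, the smallest that 4 arrays against 6 can give, and an adjusted p of 0.0286. From week 2 to week 3 the difference of changes was -0.60 ± 0.17 (exact permutation p = 0.00649, adjusted 0.0195). Without the week 2 array that equals the mean of the others, which the permutation tests include, the adjusted p was 0.0390. In the shared drop from week 1 to week 2 the 2 ligands were not separated, at 0.52 ± 0.34 (exact permutation p = 0.139, adjusted 0.260). One week 1 array, replicate 1, stood at 0.13 while the other 5 ran from 1.47 to 2.30.

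**Figure D2:**
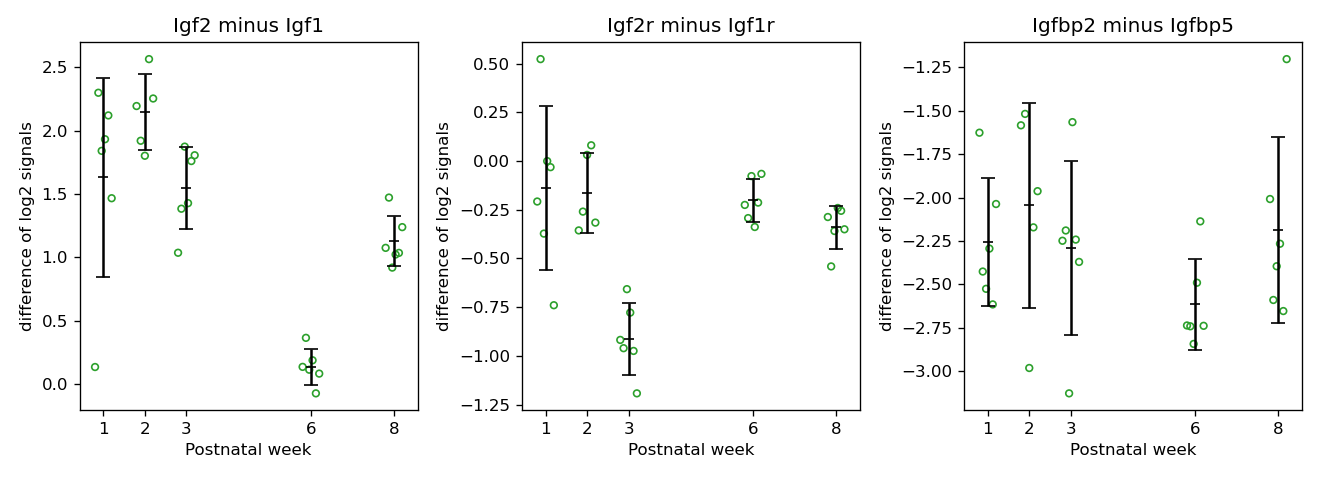
Per-array differences of log2 signal (vertical axes) against postnatal week for Igf2 minus Igf1, Igf2r minus Igf1r and Igfbp2 minus Igfbp5. Circles are arrays (5 in week 2, 6 otherwise), bars are mean and SD. The ligand difference drops to between -0.07 and 0.36 in week 6, and the receptor difference to between -1.19 and -0.66 in week 3.

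The receptor Igf1r varied little between mice of an age, with a pooled SD within weeks of 0.15, the smallest of the 10 genes. Its arrays ran from 8.71 to 9.04 with a median of 8.97 in week 1, from 8.20 to 8.67 with a median of 8.33 in week 2 and from 9.22 to 9.46 with a median of 9.30 in week 3. Week 3 lay above both earlier weeks on every array, and week 2 below week 1. Weeks 6 and 8 ran from 8.24 to 8.66 with a median of 8.59 and from 8.70 to 8.94 with a median of 8.80. The steps were -0.54 ± 0.09, 0.92 ± 0.09, -0.80 ± 0.09 and 0.28 ± 0.09 for weeks 2 versus 1, 3 versus 2, 6 versus 3 and 8 versus 6 (SE, limma adjusted p = 5.48e-06, 7.72e-09, 1.55e-08 and 0.0136). All 4 passed the adjusted p and none reached 2-fold, the highest being 1.89-fold, so Igf1r was not called in any comparison of successive weeks. With the array spread as a covariate the first 3 steps were -0.19, 0.52 and -0.48, and the first no longer passed (adjusted p = 0.117).

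Igf2r, which clears IGF2, had the narrowest range of week means, 0.56, against a median of 0.62 over all genes. In week 1 its arrays ran from 8.30 to 9.23 with a median of 8.88, and in week 2 from 7.85 to 8.75 with a median of 8.32. In weeks 3, 6 and 8 they ran from 8.23 to 8.60 with a median of 8.41, from 7.94 to 8.54 with a median of 8.43 and from 8.16 to 8.65 with a median of 8.49. All ages overlapped with week 1. Week 1 exceeded week 8, the next in order, by 0.34 (limma adjusted p = 0.0431, or 0.0544 with the terms for the dependent arrays), and weeks 8, 3, 6 and 2 followed without a separated pair of neighbours. The step from week 2 to week 3 was 0.17 ± 0.14 with a 95% interval of -0.13 to 0.46.

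The receptors parted at week 3. The per-array difference Igf2r minus Igf1r ran from -1.19 to -0.66 in week 3, below all arrays of week 2 (-0.36 to 0.08) and week 6 (-0.34 to -0.07). The difference of changes was -0.75 ± 0.11 from week 2 to week 3 and 0.71 ± 0.09 from week 3 to week 6 (SE, exact permutation p = 0.00216 for both, adjusted 0.00812). Without the dependent week 2 array the adjusted p of the first was 0.0162, and without week 6 replicates 4 and 6 that of the second was 0.0286. From week 1 to week 2 it was -0.03 ± 0.19 (exact permutation p = 0.903).

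Igfbp5, the binding protein that adheres to the extracellular matrix, ran from 11.09 to 11.68 with a median of 11.41 in week 1 and from 9.24 to 11.07 with a median of 10.29 in week 2. In week 3 the arrays ran from 11.19 to 12.22 with a median of 11.70. Neither week 1 nor week 3 overlapped with week 2. Igfbp5 fell 2.28-fold (limma adjusted p = 0.000250) and then rose 2.81-fold (log2 1.49 ± 0.26, adjusted p = 4.81e-05). The fall was -0.63 and not called with the array spread as a covariate (adjusted p = 0.202), and the rise was 0.84 (adjusted p = 0.218). Weeks 6 and 8 ran from 10.51 to 11.68 with a median of 11.15 and from 10.29 to 11.70 with a median of 11.41, and from week 3 onwards no step was called. Its neighbour Igfbp2 ran from 8.74 to 9.73 with a median of 9.06 in week 1, 7.72 to 8.79 with a median of 8.09 in week 2 and 9.00 to 9.98 with a median of 9.39 in week 3. Igfbp2 rose 2.37-fold from week 2 to week 3 (log2 1.24 ± 0.19, adjusted p = 1.19e-05), without overlap. The rise was under 2-fold after quantile normalization (log2 0.95) and 0.66 with the array spread as a covariate (adjusted p = 0.177), so the call was lost in both. In weeks 6 and 8 it ran from 7.77 to 9.04 with a median of 8.51 and from 8.73 to 9.44 with a median of 9.10. The difference Igfbp2 minus Igfbp5 was not separated between ages in any of the 5 comparisons, the lowest exact permutation p being 0.0931 for week 8 versus week 6 (0.43 ± 0.24, adjusted 0.199). The SEs of these differences, from 0.23 to 0.30, limit what these tests can detect.

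Igfbp4, the substrate of the protease PAPP-A, had the widest range among the binding proteins, 1.93. Its arrays ran from 9.77 to 10.82 with a median of 10.13 in week 1, from 8.42 to 9.97 with a median of 9.33 in week 2 and from 10.24 to 11.72 with a median of 10.87 in week 3. Week 3 lay above every week 2 array and above every week 6 array, which ran from 8.27 to 9.93 with a median of 8.93. Igfbp4 rose 3.09-fold from week 2 to week 3 (log2 1.63 ± 0.28, limma adjusted p = 3.74e-05) and fell 3.80-fold from week 3 to week 6 (log2 -1.93 ± 0.28, adjusted p = 1.66e-06), the largest change of the 10 genes in each of these comparisons. In week 8 it ran from 8.90 to 10.31 with a median of 9.76, a step of 0.79 ± 0.28 from week 6 that passed the adjusted p (0.0279) but gave 0.0716 with the terms for the dependent arrays. Igfbp4 was also the binding protein whose week 3 mean exceeded that of week 1 by a step that passed the adjusted p (log2 0.74 ± 0.28, adjusted p = 0.0307), as it did for none of the others.

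Igfbp3, the main carrier of IGFs in serum, and Igfbp7, a weak IGF binder of vessel walls and basement membranes, both fell from week 3 to week 6. Igfbp3 ran from 8.34 to 9.35 with a median of 8.86 in week 1, from 7.66 to 8.80 with a median of 8.51 in week 2 and from 8.81 to 9.85 with a median of 9.26 in week 3. It then ran from 6.77 to 8.67 with a median of 7.70 in week 6 and from 7.11 to 8.32 with a median of 7.79 in week 8, and the arrays of both later weeks lay below all of week 3. Igfbp3 fell 2.97-fold from week 3 to week 6 (log2 -1.57 ± 0.26, limma adjusted p = 9.99e-06), and its step of 0.96 ± 0.26 from week 2 to week 3 stayed under 2-fold at 1.94-fold (adjusted p = 0.00327). Igfbp7 ran from 10.51 to 11.10 with a median of 10.89 in week 1, from 9.11 to 10.51 with a median of 10.04 in week 2 and from 10.68 to 11.64 with a median of 11.27 in week 3. It rose 2.46-fold into week 3 without overlap (adjusted p = 0.000281) and fell 2.54-fold into week 6 (adjusted p = 0.000111), where the highest array overlapped with week 3. In weeks 6 and 8 it ran from 9.14 to 10.79 with a median of 9.78 and from 8.91 to 10.68 with a median of 10.14. Its difference of -0.81 ± 0.27 between weeks 8 and 1 passed the adjusted p (0.0120) but stayed under 2-fold.

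Igfbp6, which prefers IGF2 over IGF1, had the largest spread within ages, a pooled SD of 0.63. It ran from 8.39 to 9.90 with a median of 9.21 in week 1, from 7.21 to 9.38 with a median of 8.29 in week 2 and from 8.99 to 10.49 with a median of 9.72 in week 3. Igfbp6 rose 2.71-fold into week 3 (log2 1.44 ± 0.33, limma adjusted p = 0.000846), although the highest week 2 array lay within the range of week 3. In weeks 6 and 8 it ran from 7.69 to 9.50 with a median of 8.78 and from 8.00 to 9.40 with a median of 8.94. Its fall into week 6 was 2.02-fold (adjusted p = 0.0108), barely past the 2-fold threshold, and -0.79 on the log2 scale without week 6 replicate 2, which is under it. It was also under the threshold with array quality weights (-0.94), after quantile normalization (-0.90) and with the array spread as a covariate (-0.56, adjusted p = 0.350).

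Week 2 versus week 1 asked what changed around the time of eye opening. Of the 10 genes 3 fell, namely Igf1, Igf2 and Igfbp5, and none rose, where 7.16% of all genes were called lower and 3.52% higher. The adjusted p alone was passed by 9, all lower, the exception being Igfbp3 (log2 -0.57 ± 0.26, limma adjusted p = 0.0520). Of all genes 72.0% passed the adjusted p alone, in either direction. Igfbp2 and Igfbp7 fell just short of the fold threshold at 1.97-fold and 1.97-fold lower. The median log2 fold change of the 10 was -0.93, beside 0.05 over all genes. With the array spread as a covariate 8.32% of all genes were called in either direction. The median of the 10 was then -0.44, and Igf1 and Igf2 alone passed the adjusted p and were called. The count depended on single week 2 arrays. It was 6, 6 and 5 without replicates 3, 5 and 6, which adds genes among Igfbp2, Igfbp4, Igfbp6 and Igfbp7, and 2 without replicate 2, where Igfbp5 is no longer called. In the same comparison 8 of 11 fibroblast and matrix markers, 12 of 12 muscle markers and 10 of 10 photoreceptor markers were called lower, and 10 of 10 surface epithelium markers higher. Their part in the ligands' fall was not tested.

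Week 3 versus week 2 had 5 of the 10 called higher, Igfbp2, Igfbp4, Igfbp5, Igfbp6 and Igfbp7, and none lower, where 2.89% of all genes were called higher and 0.211% lower. The adjusted p alone was passed by 8, the exceptions being Igf2 and Igf2r. This criterion was passed by 55.1% of all genes, in either direction. The median log2 fold change was 1.10, beside 0.01 over all genes. Array spread moved with this comparison and did not overlap between weeks 2 and 3, so the covariate fit cannot tell spread from age. When the array interquartile range entered the fit as a covariate the median was 0.59, none of the 10 was called, 4 had an unadjusted limma p below 0.05, and 0.868% of all genes were called in either direction. Without week 2 replicates 3 or 5 the count was 7, with Igf1 and Igfbp3 added. In the same comparison 4 of 8 endothelial markers, 5 of 11 fibroblast and matrix markers and 7 of 8 retinal pigment epithelium markers were called higher, and none of the 12 muscle markers in either direction.

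Week 6 versus week 3 had 5 of the 10 called lower, Igf2, Igfbp3, Igfbp4, Igfbp6 and Igfbp7, and none higher, where 3.03% of all genes were called lower and 1.94% higher. The median was -0.95, beside 0.06 over all genes. With the array spread as a covariate 7.25% of all genes were called in either direction. The median of the 10 was then -0.52 and 3 were called, Igfbp3, Igfbp4 and Igfbp7, while Igf2 and Igfbp6 were lost. Of the endothelial markers 6 of 8 were called lower, and 12 of 12 muscle markers higher. Of the 11 fibroblast and matrix markers 1 was called lower, 1 was called higher and 9 were not called. Igf1 went against the rest of the 10 genes in sign, with 0.23 ± 0.25 and a 95% interval of -0.27 to 0.74.

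Week 8 versus week 6 had none of the 10 called in limma, where 0.231% of all genes were called higher and 1.14% lower. An unadjusted p below 0.05 was found for 4 of the 10. The same number passed the adjusted p alone, Igf1r, Igfbp2 and Igfbp4 with higher means and Igf1 with a lower mean. Among all genes 34.98% passed the adjusted p alone, in either direction. Igf1 passed the fold threshold as well when week 6 replicate 2 was left out (log2 -1.05) and with the array spread as a covariate (log2 -1.02). The median was 0.16, beside -0.05 over all genes.

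Week 8 versus week 1 spans the whole series. Igf2, Igf1 and Igfbp3 fell, by 5.04-fold, 3.55-fold and 2.06-fold, and none of the 10 rose, where 4.76% of all genes were called lower and 3.21% higher. Igfbp3 lost its call, coming under the fold threshold, with array quality weights (-0.999), after quantile normalization (-0.92), with the array spread as a covariate (-0.82) and without week 8 replicate 6 (-0.89). The median was -0.37, beside 0.04 over all genes. For Igfbp2 the 95% interval of the difference ran from -0.41 to 0.38 and for Igfbp5 from -0.62 to 0.45. Differences inside these bounds are within the error, and only the lower bound for Igfbp5 reaches about 1.5-fold.

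**Figure D3:**
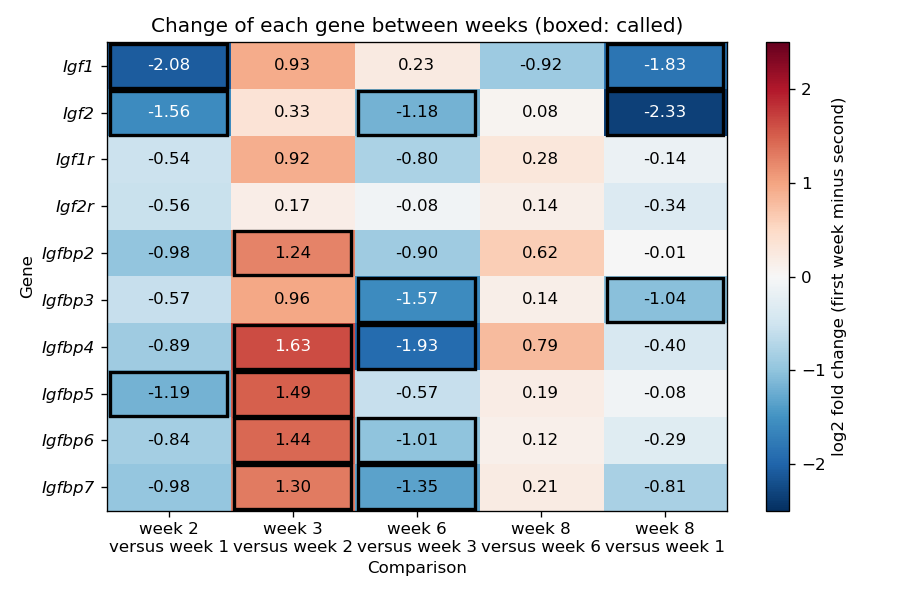
Log2 fold change (colour and printed value, first week minus second) of the 10 genes (rows) in the 5 comparisons (columns), from the limma fit over 30 arrays. Black boxes mark changes of at least 2-fold with an adjusted p of 0.05 or less, which number 3 lower in week 2 versus week 1, 5 higher in week 3 versus week 2, 5 lower in week 6 versus week 3, none in week 8 versus week 6 and 3 lower in week 8 versus week 1.

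Beyond the 10 genes, 42 of 49 listed genes of the IGF pathway were measured by a cluster with their symbol alone. In week 2 versus week 1, 4 of the 42 fell and 1 rose, counts that lie near the shares over all genes of 7.16% lower and 3.52% higher. Grb10, an imprinted adaptor that restrains the IGF1 and insulin receptors, fell 3.26-fold, from a mean of 9.09 to 7.38 (log2 -1.71 ± 0.24, limma adjusted p = 7.20e-07). Socs2, a feedback inhibitor of growth hormone signalling, fell 2.56-fold, from 7.32 to 5.96 (adjusted p = 2.02e-06). Irs1, the insulin receptor substrate that couples the receptor to PI3K, fell 2.08-fold (adjusted p = 2.04e-05), and Htra1, a secreted serine protease that cleaves IGF-binding proteins, fell 2.11-fold (adjusted p = 6.64e-05). The gene that rose was Igfbpl1, a binding protein relative, from 5.24 to 6.41 (adjusted p = 1.39e-09). None of the 18 measured genes of the kinase cascade was called in this comparison.

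No pathway gene was called in week 3 versus week 2 or in week 6 versus week 3, where 2.89% of all genes were called higher in the first step and 3.03% lower in the second. The medians of the 6 proteases and inhibitors were 0.23 and -0.26 in these steps. In week 8 versus week 6 the insulin receptor Insr fell 2.12-fold, from 8.92 to 7.83 (limma adjusted p = 1.06e-07), the only pathway gene called. In week 8 versus week 1, with 4.76% of all genes called lower and 3.21% higher, Grb10, Socs2 and Htra1 fell, by 3.22-fold, 2.22-fold and 2.10-fold, and Pik3cb, a catalytic subunit of PI3K, rose 2.03-fold (adjusted p = 5.04e-05). Ghr, the growth hormone receptor, was not called in any of the 5 comparisons, with week means between 7.88 and 8.29.

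**Figure D4:**
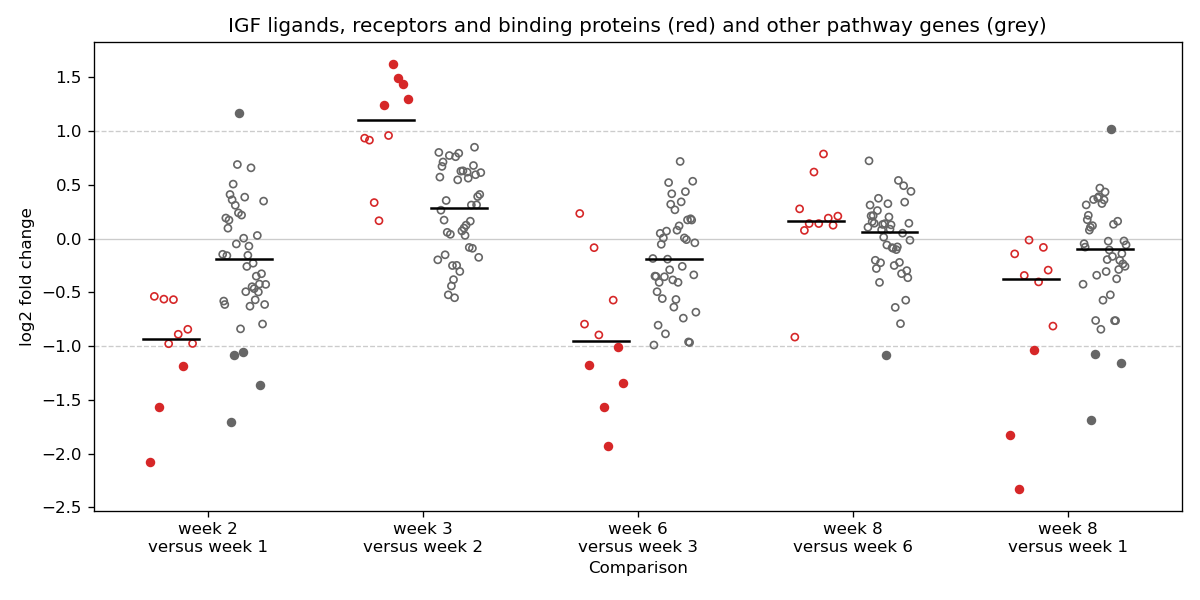
Log2 fold change (vertical axis) in the 5 comparisons for the 10 IGF ligands, receptors and binding proteins (red) and the 42 other pathway genes (grey). Filled points are called, bars are medians and dashed lines mark 2-fold. In week 3 versus week 2 the red median is 1.10 and no grey point is called.

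Likeness to cell type markers is given as Pearson's r of deviations from the week means over the 30 arrays, a description in which all points share their libraries and scaling. Igfbp7 was closest to the 8 endothelial markers such as Pecam1, Cdh5 and Kdr (r = 0.956), followed by Igfbp3 (0.891) and Igfbp4 (0.861). The mean of these markers was 8.92 ± 0.26, 8.53 ± 0.67, 9.44 ± 0.44, 8.02 ± 0.57 and 8.08 ± 0.85 over the 5 ages (SD), highest in week 3 and lowest in week 6 like the means of these 3 genes. Week 6 was not separated from the week with the next lowest mean for Igfbp3, Igfbp4 or Igfbp7 (limma adjusted p = 0.717, 0.390 and 0.899). Igfbp6 (0.951), Igfbp5 (0.933), Igf2 (0.872) and Igf1 (0.756) were closest to the fibroblast and matrix markers, and Igf2r (0.810) to those of macrophages and leukocytes. Some of these genes were also close to another list. Igfbp4 and Igfbp3 had an r of 0.855 and 0.817 with the fibroblast and matrix markers, and Igfbp5 had 0.829 with the endothelial markers. Whether such values differ between lists was not tested. Igf1r and Igfbp2 had no r above 0.61 and 0.51 with any of the 7 lists. The retinal pigment epithelium markers, the next closest list to Igf1 (r = 0.621), stood at 9.41 ± 0.54 in week 1 and 6.19 ± 0.75 in week 2. What part changes in cell makeup had in these values was not tested.

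**Figure D5:**
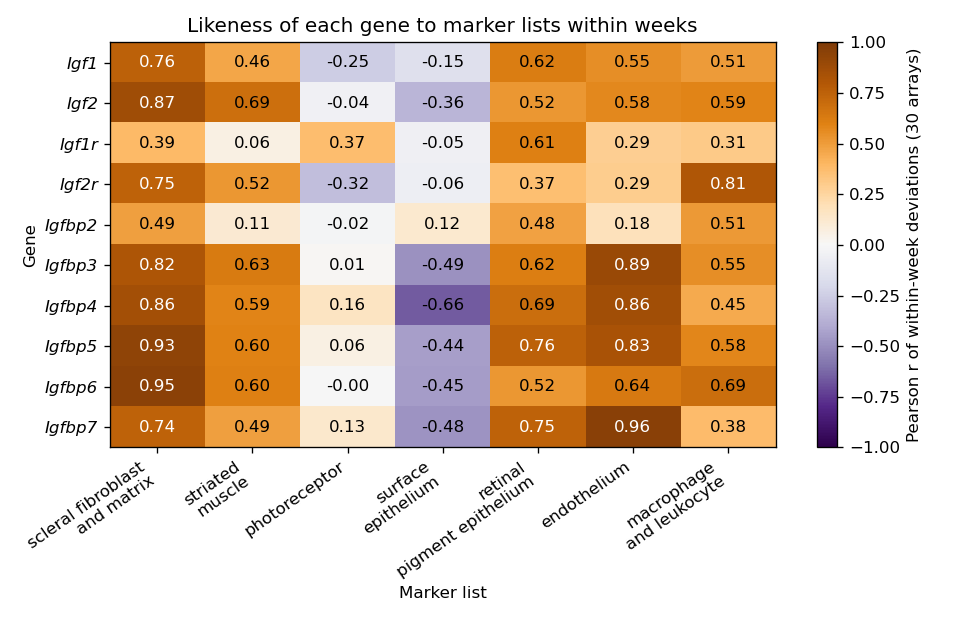
Pearson's r (colour and printed value) between the within-week deviations of each gene (rows) and the mean of each cell type marker list (columns) over 30 arrays. Igfbp7, Igfbp3 and Igfbp4 stand at 0.96, 0.89 and 0.86 with endothelium, and Igfbp6 and Igfbp5 at 0.95 and 0.93 with scleral fibroblast and matrix. Igfbp4 and Igfbp3 also stand at 0.86 and 0.82 with scleral fibroblast and matrix, and Igfbp5 at 0.83 with endothelium.

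Among the 10 genes the closest pair over all 30 arrays was Igfbp3 and Igfbp7 (r = 0.921, and 0.909 within weeks), and the ligands had r = 0.647 with each other (0.598 within weeks). Of the other genes called in any comparison, those with the signal most like Igf2 were Lox, which cross-links collagen (0.948), the imprinted growth restrainer Cdkn1c (0.939), Ppic, the laminin gene Lamc1 and Jam3. For Igf1 they were Plekhh2 (0.946), Gpx8, Rab31, Armcx3 and the corneal and scleral proteoglycan Lum (0.932). Igf1r was most like the lysosomal protease gene Ctsb (0.960), followed by Rnasek, the proton pump subunit Atp6v0b, Abr and Grn, and Igfbp2 was also most like Ctsb (0.886), followed by Gaa, Flot2, Lrp1 and Cnn2. Igf2r was most like the membrane-bound matrix metalloproteinase Mmp14 (0.907), followed by Itih5, Mfap5, Col14a1 and Mmp2.

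Igfbp3 was most like Adgre5 (0.966) and the endothelial genes Robo4, Esam, Plxnd1 and Tie1, and Igfbp7 most like Arhgap31 (0.973), the pericyte receptor Pdgfrb (0.972), Msn, Adgre5 and Itpkb. Igfbp4 was most like Stab1 (0.977), a scavenger receptor of sinusoidal endothelium and macrophages, followed by Pkd1, Adgra2, Cygb and Rusc2. Igfbp5 was most like the complement inhibitor gene Serping1 (0.973), the metalloproteinase inhibitor gene Timp2, Fgfr1, Lrp1 and Pmepa1. Igfbp6 was most like Lbp (0.945), Plpp3, the collagen-binding proteoglycan Fmod, Fgfr1 and Timp2.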

How the data were processed

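RNA from 30 single sclerae was hybridised to Mouse Gene 1.0 ST arrays. The authors deposited log2 signals per transcript cluster. Their methods name robust multiarray averaging, removal of scan-date effects and analysis of variance, while GCRMA and Partek 6.5 stand in the submitters' processing notes, which leaves the normalization unsettled, and the scan dates are not given in the sources used here. Such a removal can change the spread within ages.

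The values were used as deposited. limma 3.58.1 in R 4.3.3 was fitted to all 35556 transcript clusters with 1 mean per week, and p-values were adjusted by Benjamini-Hochberg within each comparison. Calls needed an adjusted p of 0.05 or less together with a 2-fold or larger change. SEs belong to the fitted log2 differences. Week means, SDs and ranges leave out week 2 replicate 4. The fit includes it and the dependent week 6 arrays. With terms for these arrays, Igfbp4 in week 8 versus week 6 and Igf2r in week 8 versus week 1 no longer passed the adjusted p. The fit was tested on simulated data.

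Differences between paired genes were tested by exact permutation of arrays (SciPy 1.17.1), over 6 arrays a week. Symbols came from the platform annotation, and starts and promoter sequences from RefSeq GRCm38.p6, which matched all 10 genes. No other genome or protein sequence was used here.

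The genes named are the 10 members, up to 6 called pathway genes per comparison and, for each member, the 5 genes with the highest correlation over 30 arrays among genes called in any comparison. The members and lists were chosen with earlier results of these data known. Alternatives were 1-symbol clusters, brighter clusters, array weights, 2 scalings, the 2 weeks alone, a replicate block, unmoderated contrasts, no fold threshold, an array spread covariate and arrays left out. Precision is limited by the number of arrays.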

Additional observations from a re-analysis of the deposited data

Results flagged for a closer look

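In 4 of the 50 sets of arrays formed by 10 genes and 5 ages, a single array lay apart from the others of its age by Dixon's gap ratio, where chance alone flags about 1 in 20. Week 8 replicate 6 was the low array in 3 of them. Its log2 signal was 6.13 for Igf1, where the other 5 ran from 6.81 to 7.18, 10.29 for Igfbp5, where they ran from 11.36 to 11.70, and 8.00 for Igfbp6, where they ran from 8.89 to 9.40. The same array was the lowest of its age for 7 of the 10 genes, as were week 2 replicate 2 and week 3 replicate 2, and week 6 replicate 2 was the lowest for all 10. Week 1 replicate 2 was low for Igf1r, at 8.71 beside 8.96 to 9.04. No other gene and age gave such an array. The causes were not tested.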

How the results depend on the processing

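Counts of members called that moved by over 1.5 times came from 4 kinds of setting. Without the fold threshold 9, 8, 4 and 5 members passed in weeks 2 versus 1, 3 versus 2, 8 versus 6 and 8 versus 1, because a criterion is removed. The adjusted p alone was passed by 71.96%, 55.10%, 34.98% and 58.86% of all genes in these comparisons, in either direction. With the array spread covariate 0, 3 and 1 were called in weeks 3 versus 2, 6 versus 3 and 8 versus 6, and the cause was not tested. In that fit 0.868%, 7.25% and 2.15% of all genes were called in these comparisons, in either direction. Leaving out each array of week 2 in turn, chosen after seeing the data, gave 2 to 6 in week 2 versus week 1, and leaving out week 6 replicate 2, also chosen afterwards, gave 1 in week 8 versus week 6. The other 74 recomputed counts stayed within 1.5 times. The replicate numbers did not pair the mice, since correlations of same-numbered arrays between ages went down to -0.41, and the replicate block left the counts at 3, 5, 5, 0 and 3.

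Changes that turned sign were all uncalled and small. With the array spread covariate Igf2 came to -0.13 in week 3 versus week 2 and -0.0245 in week 8 versus week 6, Igf2r to -0.31 and 0.29 in weeks 3 versus 2 and 6 versus 3, Igfbp6 to -0.000497 in week 8 versus week 6, and Igf1r, Igfbp2 and Igfbp5 to 0.0331, 0.24 and 0.20 in week 8 versus week 1. With quantile normalization Igf2r came to -0.10 and 0.0267 in weeks 3 versus 2 and 6 versus 3 and Igfbp2 to 0.0804 in week 8 versus week 1. In that comparison Igfbp2 was 0.0141 after median centring and 0.0329 with array weights, and Igfbp5 was 0.00845 with array weights. With arrays left out (week 8 replicate 2 or 6, or week 6 replicate 2), Igf2 ranged from -0.0258 to 0.20, with -0.00876 without week 6 replicate 2, Igfbp3 from -0.0473 to 0.29 and Igfbp6 from -0.0938 to 0.30 in week 8 versus week 6. Igfbp5 ranged from -0.16 to 0.12 in week 8 versus week 1, where the difference of changes of Igfbp2 minus Igfbp5 ranged from -0.13 to 0.15. The other 74 recomputed differences of changes kept sign and call. The next brightest cluster of a gene could not be tried, since each member had 1.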
